A study of Mus musculus with 8 samples.

Results

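Selenbp1 (ENSMUSG00000068874) and Selenbp2 (ENSMUSG00000068877), the selenium-binding protein genes of the mouse, were followed library by library in RAW264.7 cells, a macrophage-like line from a mouse tumour. They are 2 of the 22013 genes in the deposited table. The pair was chosen by gene symbol after the fold change of Selenbp1 between these same libraries had become known, so its group difference is given below as a description. Selenbp1 was part of the fit across all tested genes, but no p-value is given for it, since the choice of the pair used the same contrast. RNA came from cells that received PBS (4 libraries) or recombinant follistatin-like 1 protein, rFSTL1, at 100 ng/mL for 24 h (4 libraries), and poly(A) RNA was sequenced on an Illumina NovaSeq instrument. The length of the PBS exposure is not stated in the labels. Every library came from this 1 cell line, and nothing in the labels says whether the 4 libraries of a group came from separate cultures, so p-values measure the spread between libraries, which may be technical.

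SELENBP1 is a cytosolic enzyme, methanethiol oxidase, that breaks down the sulfur compound methanethiol and releases hydrogen sulfide, hydrogen peroxide and formaldehyde. It was named for its ability to bind selenium, but it does not carry selenocysteine and so is not a selenoprotein. The protein is abundant in liver, kidney and lung, and its level is low in many tumours. Selenbp2 is a close copy found in rodents, and its product was first described in mouse liver as a protein that binds acetaminophen.

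The members lie near each other on mouse chromosome 3, on the same strand, with 3 protein-coding genes (Cgn, Pogz and Psmb4) between them in the RefSeq gene table of GRCm38.p6. The 250 bases before the start of each gene are shown because they make visible how alike the copies are outside the coding part as well. They are from RefSeq, build GRCm38.p6, plus strand, at chr3:94932833-94933082 for Selenbp1 and chr3:94693323-94693572 for Selenbp2. Capitals mark bases that are substituted in the other copy or have no partner there, within the stretch where both windows overlap.
Selenbp1: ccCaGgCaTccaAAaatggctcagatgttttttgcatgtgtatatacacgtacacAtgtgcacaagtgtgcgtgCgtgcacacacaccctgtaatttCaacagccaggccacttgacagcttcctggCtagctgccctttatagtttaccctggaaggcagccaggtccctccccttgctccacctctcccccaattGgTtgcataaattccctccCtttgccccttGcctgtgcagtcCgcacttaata
Selenbp2: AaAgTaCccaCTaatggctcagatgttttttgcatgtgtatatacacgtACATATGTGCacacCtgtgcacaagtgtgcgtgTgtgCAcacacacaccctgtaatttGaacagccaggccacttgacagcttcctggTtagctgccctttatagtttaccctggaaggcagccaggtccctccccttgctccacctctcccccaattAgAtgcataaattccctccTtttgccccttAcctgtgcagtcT
Over the 250 aligned positions, 223 were identical (89.2%), 15 were substituted and 12 were present in Selenbp2 alone. The letters ACGTG, the core of the hypoxia response element, were searched on both strands and occur once in each window, on the reverse strand, beginning at -204 from the start in Selenbp1 and at -206 in Selenbp2. They are found in 16.6% of the 32851 windows of the same length in the table. TGACNNNGC, the core of the antioxidant response element, has no match in either window and has one in 10.2% of all windows. TATAAA has a reverse-strand match in both, at -113 and -103, and a match on either strand in 12.4% of all windows. None of these matches overlap each other. A match of letters is a description and not a binding site.

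Within the transcripts the copies were closer still. The Selenbp1-201 and Selenbp2-201 transcripts of GENCODE M21, of 1712 and 1719 bases, differed by 25 substituted bases and by 7 extra bases in Selenbp2. The coding sequences, of 1416 bases each, differed at 18 positions (98.7% identical), and their translations of 472 residues differed at 12. The stretch of 60 coding bases with the most differences holds 4, from position 390 to 449 of both coding sequences, and is printed to show how few letters tell the copies apart, with the differing bases in capitals.
Selenbp1: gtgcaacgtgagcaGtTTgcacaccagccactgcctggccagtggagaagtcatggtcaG
Selenbp2: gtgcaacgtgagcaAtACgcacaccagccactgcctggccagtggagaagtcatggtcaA
The longest run without a difference was 193 bases. Of all stretches of 100 bases in the Selenbp1 transcript, 21.3% were found without change in a Selenbp2 transcript and 66.8% with at most 1 mismatch. For stretches of 150 bases the shares were 6.97% and 40.3%, and for 50 bases they were 52.3% and 85.0%. No stretch of 50, 100 or 150 bases of either member occurred in the transcript of another gene (0 exact matches). The read length is not given in the sources used here, so how many reads the counter could not place is not known from these shares.

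**Figure D1:**
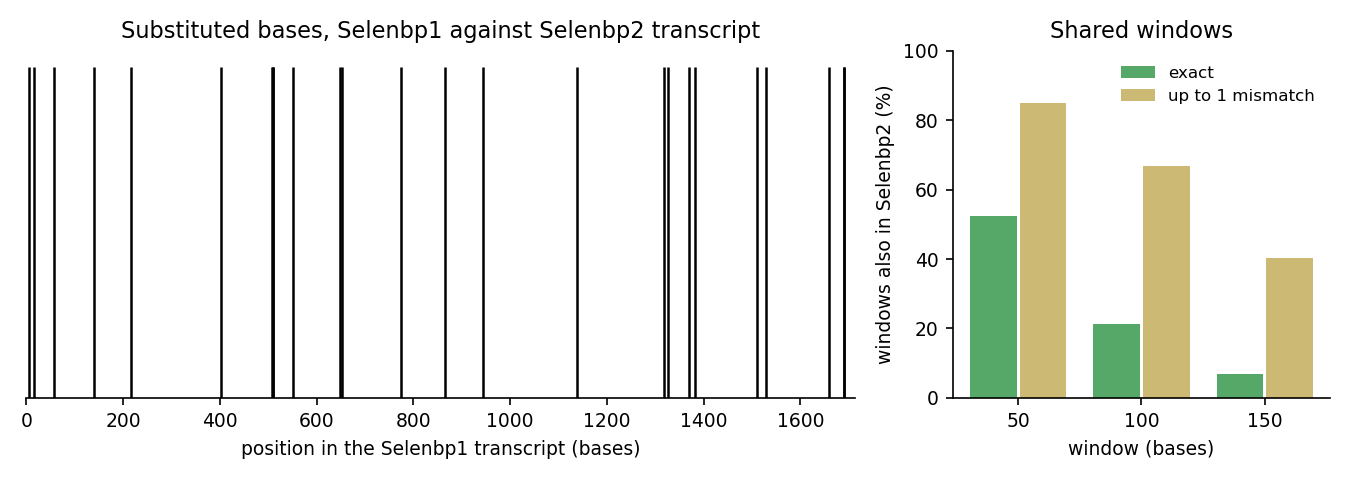
Left, positions in the Selenbp1 transcript (x axis, in bases) where the Selenbp2 transcript has a substituted base, 1 line for each position. Right, percent of windows of 50, 100 and 150 bases of the Selenbp1 transcript that also occur in Selenbp2, exactly or with at most 1 mismatch. Exact sharing falls from 52.3% at 50 bases to 6.97% at 150 bases.

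Every deposited value of both genes was a fraction. The expected count of Selenbp1 under PBS was 88.19, 126.86, 109.75 and 47.97 reads in replicates 1 to 4, and that of Selenbp2 was 5.81, 5.14, 6.25 and 1.03. Under rFSTL1 the Selenbp1 count was 162.94, 163.05, 190.66 and 208.68, and the Selenbp2 count was 1.06, 14.95, 10.34 and 6.32. Added together, the rows gave a whole number in 8 of 8 libraries (tolerance 0.02), namely 94, 132, 116 and 49 under PBS and 164, 178, 201 and 215 under rFSTL1. The fractional part of one row thus completed that of the other in each library, the arithmetic of reads divided between these 2 rows. How the authors' counter divided them is not given in the sources used here. Among the 11344 genes with a count in all 8 libraries, 821 (7.24%) had a fraction in all 8. Selenbp2 took 18.23 of the 391 reads of the pair under PBS (4.66%) and 32.67 of the 758 under rFSTL1 (4.31%). By library its share ran from 2.10% to 6.18% under PBS and from 0.646% to 8.40% under rFSTL1, so the ranges overlapped.

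**Figure D2:**
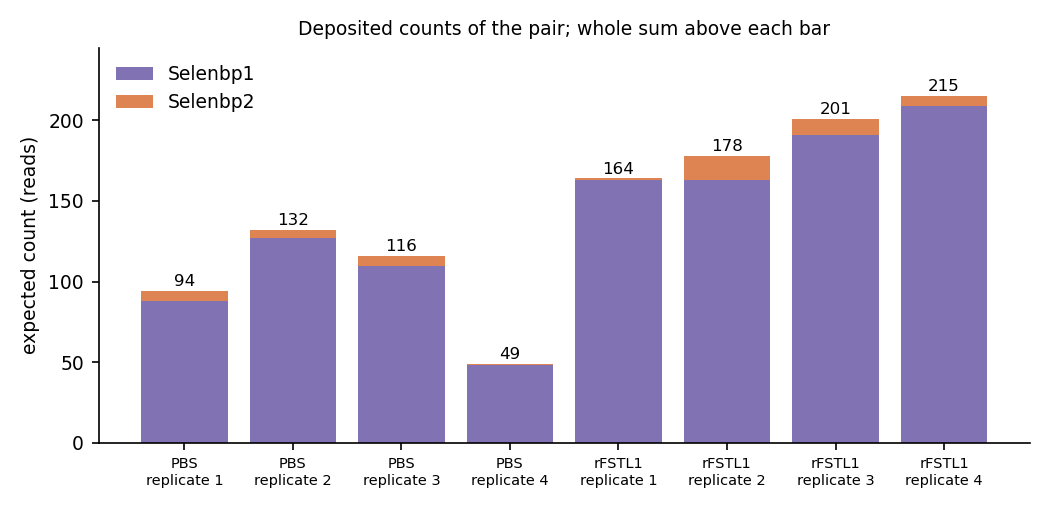
Stacked bars of the deposited expected counts (y axis, reads, from 0) of Selenbp1 and Selenbp2 in each library (x axis), with their sum above the bar. The sums are whole numbers, 49 to 132 under PBS and 164 to 215 under rFSTL1, and Selenbp2 is the thin upper part in each bar.

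Library totals ran from 15062023 to 20234477 expected counts. The cells had most of the markers of their labelled type. The 10 macrophage markers summed to between 4699 and 4850 CPM under PBS and between 4761 and 4928 CPM under rFSTL1, where CPM are counts-per-million values on library sizes scaled by the TMM method. Mertk was the 1 marker of the 10 that was too low to be tested. Adgre1 was tested but low, with means of 3.43 CPM under PBS and 3.66 CPM under rFSTL1. The 6 red cell markers summed to at most 0.221 CPM in any library. Of the 5 fat cell markers, Fabp4, which macrophages also express, was the 1 that was tested. The 8 liver and kidney markers had 0 to 1 expected counts in all in 7 libraries and 22.6 in rFSTL1 replicate 2. Of the latter, 13 belonged to Alb, which encodes serum albumin, 3.6 to Serpina1a, 2 to Apoa1 and 2 to Ttr, and the kidney genes Slc34a1 and Umod were at 0 in all 8 libraries.

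Selenbp1 was low in these cells and higher after rFSTL1. Its level was 5.36, 7.02, 5.42 and 3.15 CPM in PBS replicates 1 to 4, and 10.9, 10.04, 9.98 and 10.7 CPM in rFSTL1 replicates 1 to 4. All 4 libraries under rFSTL1 lay above all 4 under PBS. Of all tested genes, 4.63% had every rFSTL1 library above every PBS library, and since Selenbp1 was chosen for this contrast nothing is read from its place among them. Over 4 libraries each, the PBS mean was 5.24 ± 1.59 CPM (SD) and the rFSTL1 mean 10.4 ± 0.462 CPM (SD), a ratio of 1.99. The lowest library under rFSTL1 was 1.42 times the highest under PBS. The log2 fold change fitted over all tested genes was 0.98 with a standard error of 0.16, and 11 of the 10748 tested genes, itself included, had a fold change as large or larger. Averaged over the 8 libraries, 17.5% of tested genes had a lower mean CPM, against a median of 37.9 CPM. In RNA from a whole culture, more cells with Selenbp1 RNA and more Selenbp1 RNA in each cell cannot be told apart.

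The Selenbp1 SD was larger among the PBS libraries than among the rFSTL1 libraries, and that of Selenbp2, described below, was smaller, and neither difference in spread was tested. For scale, the PBS SD of Selenbp1 was 2.87 times the SD of 0.555 CPM that counting reads alone would give at this depth. Under rFSTL1 the SD was 0.595 times its counting SD of 0.776 CPM. With 4 libraries a group, these ratios are imprecise and were not tested. Replicate 4 was the lowest PBS library and replicate 2 the highest. Leaving out PBS replicate 4 lowered the log2 fold change to 0.80, and leaving out PBS replicate 2 raised it to 1.15. For Selenbp1 in PBS replicate 2 the exact 95% Poisson interval was 5.82 to 8.31 CPM of the unscaled library total, and in rFSTL1 replicate 2 it was 8.45 to 11.6. These intervals show the precision of single libraries and cover counting error only.

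Selenbp2 had few reads in every library, from 1.03 to 14.95. Its level was 0.353, 0.285, 0.308 and 0.0677 CPM in PBS replicates 1 to 4 and 0.0708, 0.921, 0.541 and 0.324 CPM in rFSTL1 replicates 1 to 4. The groups overlapped, since rFSTL1 replicate 1 lay below 3 of the PBS libraries. Over 4 libraries each, the PBS mean was 0.253 ± 0.127 CPM (SD) and the rFSTL1 mean 0.464 ± 0.36 CPM (SD). Selenbp2 did not pass the filter on low counts, which makes Selenbp1 the 1 member of the pair that did. In a fit on all genes with a count, its log2 fold change was 0.82 with a standard error of 0.65, which leaves both a decrease and an increase within 2 standard errors. The highest Selenbp2 level was in rFSTL1 replicate 2, the library that held 22.6 of the 26.6 reads of liver and kidney markers. Without that library its log2 fold change was 0.27. Without rFSTL1 replicate 1 it was 1.15, and without PBS replicate 4 it was 0.54. The Selenbp1 level of rFSTL1 replicate 2 was inside the range of the other rFSTL1 libraries, and without this library the Selenbp1 log2 fold change was 0.98. The part of liver RNA in the Selenbp2 values was not tested.

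**Figure D3:**
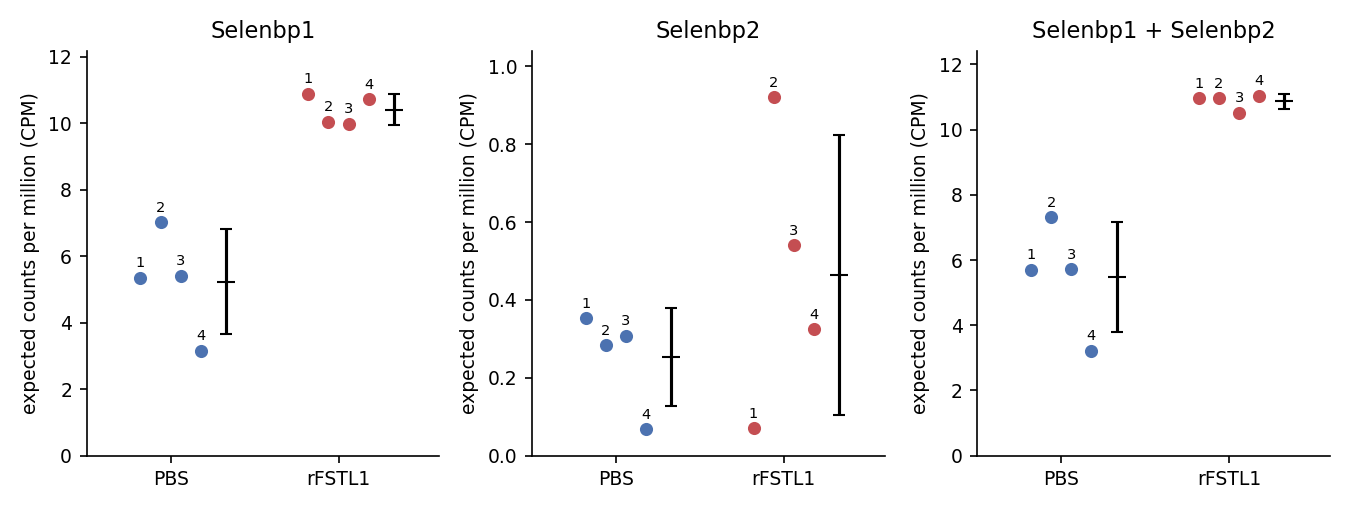
Level of Selenbp1, Selenbp2 and their sum (y axes, CPM, each from 0) in the PBS and rFSTL1 libraries. Points are libraries with their replicate number, and the bar beside them is the mean and SD of 4 libraries. For Selenbp1 and for the sum the groups do not overlap, and for Selenbp2 they do.

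Per kilobase of transcript, the Selenbp1 mean was 3.06 ± 0.928 CPM in PBS libraries and 6.08 ± 0.27 CPM in rFSTL1 libraries (SD, n = 4 each). Selenbp2 stood at 0.147 ± 0.0739 and 0.27 ± 0.209 CPM per kilobase (SD, n = 4). Selenbp1 was the higher of the members in 8 of 8 libraries.

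The sum of both rows does not depend on how reads were divided between them, and gave 0.97 on the log2 scale, with a standard error of 0.16. For Selenbp1 alone, the value was 0.91 if it also received all Selenbp2 reads under PBS and none under rFSTL1, and 1.04 with the groups exchanged. Divisions that move Selenbp1 reads to Selenbp2 were not tried, so these values do not bound the effect of the division. The summed level was 5.71, 7.31, 5.72 and 3.22 CPM under PBS and 10.96, 10.96, 10.5 and 11.04 CPM under rFSTL1. Under rFSTL1 its SD of 0.236 CPM was smaller than that of Selenbp1 alone, and was 0.297 times the counting SD.

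None of the tested selenoprotein genes passed the edgeR test. With so few genes called in the whole table, a count of 0 in a list this short says nothing particular about it. Of 24 selenoprotein genes 17 had enough counts, and 0 had an adjusted p under 0.05 in edgeR's quasi-likelihood test, against 37 of 10748 genes (0.344%) in the whole table, of which 35 were higher and 2 lower. Their median log2 fold change was -0.0027, with 8 positive and 9 negative values, and that of all tested genes was 0.01. By unadjusted p, 6 of the 17 were under 0.05, against 15.9% of all tested genes. These were Selenow, Gpx4, Msrb1 and Selenom, with positive fold changes, and Txnrd1 and Selenoi, with negative ones. DESeq2 called 1 of the 17 (Selenow), and limma voom with sample quality weights called 2 (Selenow and Gpx4), where these tools called 1.81% and 4.22% of all tested genes. In 3 of the 17, namely Msrb1, Selenom and Txnrd1, the groups did not overlap, as in 8.16% of all tested genes in either direction. Without rFSTL1 replicate 1 edgeR also called 2, Selenow (adjusted p = 0.0338) and Gpx4 (adjusted p = 0.0433), and 99 of 10830 genes in all (0.914%, against 0.344% with all libraries). Gpx4, Txnrd1, Selenoi and Sars1 are named here after their values were seen.

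Selenow, a small thiol-containing selenoprotein, had the largest fold change of this list. It stood at 30.8, 33.6, 30.3 and 27.8 CPM under PBS and 31.9, 38.4, 40.1 and 41.0 CPM under rFSTL1. Replicate 1 of rFSTL1 was inside the PBS range and the other 3 were above it. The log2 fold change was 0.31 with a standard error of 0.08, and the adjusted p was 0.107 by edgeR with Benjamini-Hochberg adjustment. Gpx4, the peroxidase that protects membrane lipids, had a log2 fold change of 0.20 (adjusted p = 0.136 in the same edgeR test). Msrb1, a methionine sulfoxide reductase, had 0.28, but 1 library, rFSTL1 replicate 2, was at 37.9 CPM and the others of its group at 26.6 to 28.3 CPM. Selenom had 0.28, from 7.48 ± 0.689 to 9.12 ± 0.773 CPM (SD, n = 4). Txnrd1, the cytosolic thioredoxin reductase, had -0.10.

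Among 12 genes for the uptake of selenium and the making and insertion of selenocysteine, 11 were tested and 0 passed by edgeR, DESeq2 or limma voom, which called 0.344%, 1.81% and 4.22% of all tested genes. At an unadjusted p under 0.05 there were 3 of the 11, all with positive values, against 15.9% of all tested genes. Trnau1ap, which binds the selenocysteine tRNA, averaged 10.7 ± 0.14 CPM in PBS libraries and 12.8 ± 0.907 CPM in rFSTL1 libraries (SD, n = 4 each), a log2 fold change of 0.25. Rpl30, a ribosomal protein that also binds the selenocysteine insertion element, had 0.16, and reads of ribosomal protein genes can be shared with pseudogenes. Sepsecs, which makes selenocysteine on its tRNA, had -0.15 with a standard error of 0.08. The third gene at an unadjusted p under 0.05 was Sars1 (Sars in the table), the seryl-tRNA synthetase.

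Among the enzymes that handle the products of the SELENBP1 reaction, none passed the edgeR test, which called 0.344% of all tested genes. Of 12 genes that make, methylate or oxidise hydrogen sulfide, 9 were tested, and 0 passed by edgeR, DESeq2 or limma voom, with 0 at an unadjusted p under 0.05. Over all tested genes the shares were 0.344%, 1.81%, 4.22% and 15.9%, so in a list this short the zeros say nothing particular about it. Cth, cystathionine gamma-lyase, had the largest log2 fold change with 0.27 (standard error 0.16). Sqor, the mitochondrial sulfide oxidase, had 0.17 and Tst, a sulfurtransferase, 0.08, with standard errors of 0.14 and 0.37. All 12 genes that remove hydrogen peroxide or formaldehyde were tested, and 0 passed by edgeR. Prdx5, a peroxiredoxin, was the 1 gene of these 12 at an unadjusted p under 0.05, against 15.9% of all tested genes, and DESeq2 and limma voom, which called 1.81% and 4.22% of all tested genes, both called it. It stood at 50.5, 47.8, 48.2 and 45.4 CPM under PBS and 52.7, 64.5, 57.8 and 56.0 CPM under rFSTL1, so the groups did not overlap, as in 8.16% of all tested genes. Its log2 fold change was 0.27 (standard error 0.06, adjusted p = 0.076 by edgeR with Benjamini-Hochberg adjustment). Without rFSTL1 replicate 1 the adjusted p of Prdx5 in the same edgeR test was 0.0461. Aldh1l1, a folate enzyme that takes up formaldehyde carbon, had -0.25 (standard error 0.22), and Prdx1 had -0.06 (standard error 0.05). The median of both lists was close to 0, at 0.02 and 0.00 on the log2 scale.

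Genes whose proteins have been tied to SELENBP1 by binding or by opposite levels were Gpx1, Usp33 and Hif1a. Gpx1, the cytosolic glutathione peroxidase, had 0.08 on the log2 scale (standard error 0.05). Usp33, a deubiquitinase, had -0.09 (standard error 0.06). Hif1a, the oxygen-sensitive subunit of the hypoxia-inducible factor, had -0.13 (standard error 0.05). The adjusted p-values of the 3 genes were 0.418, 0.501 and 0.234 by edgeR with Benjamini-Hochberg adjustment.

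The genes beside the pair on the chromosome were read from the same fit. Of the 20 protein-coding genes nearest on either side (10 before Selenbp2 and 10 after Selenbp1), 14 were tested, 0 passed by edgeR, DESeq2 or limma voom, and their log2 fold changes ran from -0.12 to 0.17. Vps72 was the 1 gene of the 14 at an unadjusted p under 0.05, with 0.13. Over all tested genes 0.344%, 1.81% and 4.22% were called by edgeR, DESeq2 and limma voom, and 15.9% had such a p. None of these counts thus sets the neighbours apart. Tmod4 had the value of 0.17 with a standard error of 0.39. The gene directly before Selenbp2, Tuft1, had -0.03 (standard error 0.10), and the gene directly after Selenbp1, Rfx5, had -0.12 (standard error 0.07). Of the 3 genes between the members, Psmb4, which directly precedes Selenbp1, had -0.05 (standard error 0.06), Pogz had 0.03 and Cgn was too low to be tested.

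**Figure D4:**
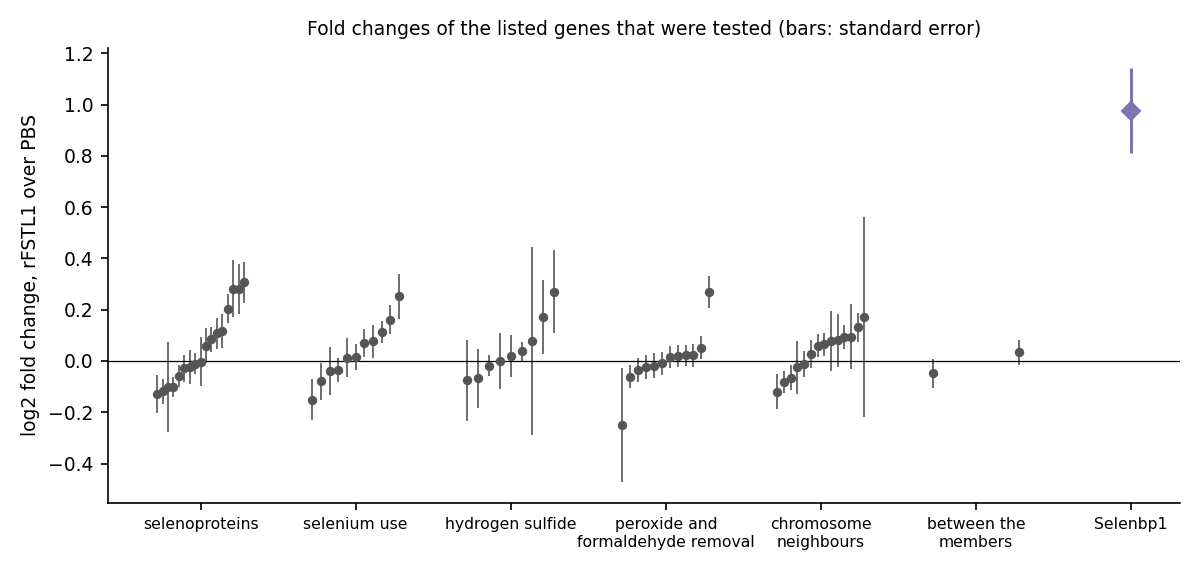
Log2 fold change, rFSTL1 over PBS (y axis), of the tested genes of each list and of the chromosome neighbours, with standard errors, and of Selenbp1 at the right for scale. The listed genes lie between -0.25 and 0.31, and Selenbp1 lies at 0.98.

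The genes whose levels followed Selenbp1 most closely over the 8 libraries, out of 10747, were H2-Q6 (Pearson r = 0.98), Adm (0.97), Tpi1 (0.96), Hilpda (0.96) and Ndrg1 (0.96), on log2 CPM. Their Spearman rho was 0.86, 0.88, 0.79, 0.76 and 0.88. Without the 2 libraries farthest from the median of Selenbp1, PBS replicates 1 and 4, r was 0.94, 0.94, 0.94, 0.97 and 0.94. In all, 73 genes had r above 0.9. The group difference enters every one of these values, the points share their libraries, and no p is given. H2-Q6 is a nonclassical MHC class I gene of a multigene family whose reads can be shared between copies. Adm encodes the vasoactive peptide adrenomedullin, Tpi1 the glycolytic enzyme triosephosphate isomerase, Hilpda a lipid droplet protein, and Ndrg1 a stress-responsive cytoplasmic protein.

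Adm stood at 6.98, 6.64, 6.91 and 3.02 CPM under PBS and 12.96, 10.96, 11.7 and 12.7 CPM under rFSTL1. Like Selenbp1, it was lowest in PBS replicate 4 and did not overlap between the groups, as in 8.16% of all tested genes. Ndrg1 stood at 168, 157, 158 and 121 CPM under PBS and 229, 203, 214 and 218 CPM under rFSTL1. Hilpda stood at 15.5, 14.7, 13.9 and 11.6 CPM under PBS and 18.8, 19.3, 19.3 and 19.8 CPM under rFSTL1. In all 5 genes PBS replicate 4 was the lowest library of the 8. The genes were picked for r to Selenbp1 over these libraries, so such shared traits follow largely from the pick. The log2 fold changes were 1.02 for Adm, 0.51 for Ndrg1, 0.47 for Hilpda, 0.23 for H2-Q6 and 0.18 for Tpi1.

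**Figure D5:**
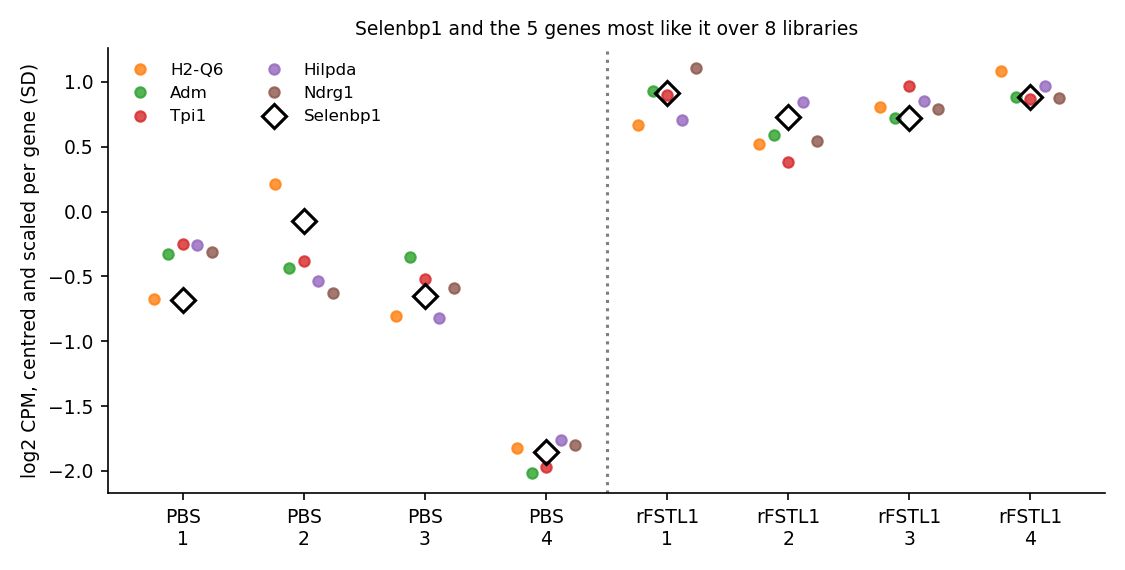
Log2 CPM of Selenbp1 (open diamonds) and of the 5 genes with the highest Pearson r to it (dots), centred and scaled per gene in SD units (y axis), for each library (x axis), with a dotted line between the groups. All 6 genes are lowest in PBS replicate 4 and higher in each rFSTL1 library than in any PBS library. The 5 genes were picked for r over these same libraries, so this likeness follows largely from the pick.

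After the mean of each group was subtracted, a different order appeared. The highest r then belonged to A430033K04Rik (0.98), Slc19a2 (0.96), Clcn2 (0.95), Purg (0.95) and H2-Q6 (0.95), and 29 genes were above 0.9. Most of the Selenbp1 deviations lay in PBS replicates 4 and 2, at -0.66 and 0.47 on the log2 scale, against at most 0.10 in size in the other libraries. Without those 2 libraries r fell to 0.87 for A430033K04Rik, 0.23 for Slc19a2, -0.01 for Clcn2, 0.56 for Purg and 0.31 for H2-Q6. For all but A430033K04Rik the likeness within groups thus rests largely on those libraries. Nothing is read from the 0.87, since the Selenbp1 deviations left are small and A430033K04Rik was picked for its high r. The fold changes of A430033K04Rik and Slc19a2 were -0.05 and -0.03.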

How the data were processed

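The authors deposited expected counts (estimated counts, not normalized) for 22013 genes in 8 libraries. Their processing notes name Bowtie2 2.2.8, HISAT2, StringTie 1.3.1 and DESeq2 without their roles. The counter, the genome build and the read length are not given in the sources used here, and whether counting used strand is not stated. The design assumed whole or expected counts, and 12.2% of nonzero values were over 0.02 from a whole number, so counts were rounded for tests and for the CPM of genes other than the pair.

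Genes kept by filterByExpr (minimum count 10; 10748 genes) were compared with edgeR 4.0.16 (TMM, glmQLFit, glmQLFTest) under R 4.3.3, and p-values were adjusted by Benjamini-Hochberg (called under 0.05). The test was checked on simulated data. Log2 CPM for likeness used a prior count of 2. Alternatives used DESeq2 1.42.0 and limma 3.58.1. Sequences were compared with Biopython 1.88, using GENCODE M21 transcripts and the RefSeq promoter table. No protein sequence table was used.

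The members and gene lists were chosen with earlier results of these data known. Named genes are the members, list members that passed, the 3 largest fold changes of each list, Gpx1, Usp33, Hif1a, the 5 genes most like Selenbp1 by each measure and the flanking genes. The least different libraries of a group had a chi-square of 3.03 per degree of freedom, so none was a duplicate. The genes of all lists were matched by symbol.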

Additional observations from a re-analysis of the deposited data

Results flagged for a closer look

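Among the members and named genes, 64 groups of 4 libraries were examined for a library far from the others by Dixon's criterion, and 6 were found. Chance flags about 1 in 20 groups when they are independent, which these are not, since Adm, Tpi1 and Purg were named because their levels follow Selenbp1 over the same libraries. The summed level of Selenbp1 and Selenbp2 was 10.5 CPM in rFSTL1 replicate 3 and 10.96 to 11.04 CPM in the other rFSTL1 libraries. Adm was at 3.02 CPM in PBS replicate 4, against 6.64 to 6.98 CPM in the other PBS libraries. Tpi1 was at 1081 CPM in the same library, against 1216 to 1243 CPM. Msrb1 was at 37.9 CPM in rFSTL1 replicate 2, against 26.6 to 28.3 CPM. Cth was at 5.13 CPM in PBS replicate 3, against 3.38 to 3.61 CPM. Purg was at 3.24 CPM in rFSTL1 replicate 3, against 4.05 to 4.13 CPM. Neither Selenbp1 nor Selenbp2 alone had such a library.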

How the results depend on the processing

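The fold changes of Selenbp1, of Selenbp2 and of their sum were positive in all 49 alternatives run on them. These reuse the same libraries, and the pair was chosen for this contrast, so the shared sign is not support. For Selenbp1 and the sum the groups did not overlap, so the sign could hardly change. Selenbp2 had a standard error of 0.65 in the fit on all genes with a count. Selenbp1 gave 0.80 (without PBS replicate 4) to 1.15 (without PBS replicate 2), the sum 0.79 to 1.14 without 1 library, and Selenbp2 0.27 to 1.15 without 1 library and 0.63 by limma voom. The 2 settings that give Selenbp2 reads to Selenbp1 in a single group were added after seeing the data, and no setting moved reads the other way. In place of 37 genes, the number called was 56 with upper-quartile scaling, 195 by DESeq2 (128 higher, 67 lower), 454 by limma voom (244 higher, 210 lower), 127 with no filter beyond 1 count (101 higher, 26 lower), and 11 (without PBS replicate 2) to 99 (without rFSTL1 replicate 1) without 1 library. The cause was not tested. Selenoproteins called were 1 by DESeq2 (Selenow), 2 by limma voom (Selenow and Gpx4), 1 on all genes with at least 1 count (Selenow) and 0 to 2 without 1 library. Genes for peroxide or formaldehyde removal called were 1 under each of these 3 settings (Prdx5) and 0 to 1 without 1 library. For both lists the calls without 1 library arose without rFSTL1 replicate 1. The lists of selenium use, of hydrogen sulfide and of neighbours stayed at 0 under every alternative run. They hold 11, 9 and 14 tested genes, and edgeR called 0.344% of all tested genes, DESeq2 1.81% and limma voom 4.22%. In lists this short the zeros say nothing particular. Same-numbered libraries had correlations of deviations of -0.034, 0.014, -0.010 and -0.0093. These show no pairing by number across the tested genes as a whole, and cannot exclude one that touches few genes. With the replicate block, 41 genes were called and Selenbp1 had a log2 fold change of 1.01. The precision of Selenbp2 is limited, with 1.03 to 14.95 reads per library. Its SD was 2.18 times its counting SD under rFSTL1 and 1.04 times under PBS. The size of change that could be detected was not measured.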
